A study of Mus musculus with 6 samples.

Results

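YAP was profiled by chromatin immunoprecipitation sequencing in 4 of the 6 libraries of the series, all from mouse gastric corpus epithelium, and these 4 are described here by a word written inside the names of their peaks. The names of the libraries labelled tumor 2 and normal 2 hold the word Clu_Yap, and those of the libraries labelled tumor 1 and normal 1 hold the word cre. The word therefore cuts across the labels, and each label has 1 library of each word. The libraries were grouped by word after reading these names, and compared within the tumor pair and within the normal pair on chromosomes 1 to 19 and X. What the words stand for is not given in the sources used here. Every library of the word Clu_Yap is replicate 2 of its label and every library of the word cre is replicate 1, so word and replicate number cannot be told apart.

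By their labels, the tumor libraries came from Yap-activated gastric cancer in mice of genotype CluCreERT2;R26rtTA;HA-Yap+, in which a tamoxifen-inducible Cre is expressed from Clu, with a doxycycline-dependent transactivator at R26 and an HA-tagged Yap, and the normal libraries came from the stomach of WT mice. One treatment text stands for all samples, normal included, with 2 mg of tamoxifen injected on each of 5 days in a row and doxycycline food over the last 14 days. Epithelial cells were released with EDTA and were not cultured, and an antibody against YAP was used in all 4 libraries. Nothing in the labels says that the libraries of a label came from separate animals, so the spread between them, and any p-value resting on it, may be technical.

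YAP is a transcriptional coactivator that the kinases of the Hippo pathway keep out of the nucleus. It has no DNA-binding domain and reaches chromatin through TEAD factors, often together with AP-1 factors, at distal enhancers and at promoters. Ccn1, Ccn2, Ankrd1 and Amotl2 are among its textbook target genes. In the stomach and gut, YAP is known for its part in regeneration after injury.

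Each library is 1 list of summits, the single base of strongest signal in each peak. Tumor 2 (Clu_Yap) had 53831 summits and tumor 1 (cre) had 38227, while normal 2 (Clu_Yap) had 2121 and normal 1 (cre) had 1574. The Clu_Yap list was the longer of its pair both times, by a factor of 1.41 in the tumor pair and 1.35 in the normal pair. The mean factor was 1.38 with an SD of 0.0449 on the log2 scale over 2 pairs, against means of 27976 ± 36564.5 summits for Clu_Yap and 19900.5 ± 25917.6 for cre (SD, n = 2 each). Exchanging the words within the pairs gives 4 arrangements, and the exact two-sided permutation p was 0.5, the smallest this design allows. For most of what follows, the Clu_Yap list of each pair was cut to the length of its cre partner by keeping its best scores, which left 38227 summits per tumor library and 1574 per normal library. Normal 1 (cre) stands apart from the other 3 libraries in where its summits lie, as given below, and each result of the normal pair rests on it. The depth of the libraries is unknown.

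The elements on which the comparison by word turns were of different kinds. At the promoter windows of Tor1aip2 and Cpsf2, the Clu_Yap summits of both labels fell inside the window and no cre summit fell within 200 bp, but a tumor cre summit lay a little further along. Tor1aip2 encodes a regulator of torsin ATPases, and Cpsf2 a subunit of the complex that cleaves the 3′ ends of pre-mRNAs. Both windows are shown to give the distances at stake, in capitals at the base of each Clu_Yap summit with 2 bases on either side. They run from 250 bases before the transcript start to 50 after it (RefSeq, GRCm38.p6), at chr1:156035786-156036085 and chr12:101975724-101976023, both on the + strand.
Tor1aip2: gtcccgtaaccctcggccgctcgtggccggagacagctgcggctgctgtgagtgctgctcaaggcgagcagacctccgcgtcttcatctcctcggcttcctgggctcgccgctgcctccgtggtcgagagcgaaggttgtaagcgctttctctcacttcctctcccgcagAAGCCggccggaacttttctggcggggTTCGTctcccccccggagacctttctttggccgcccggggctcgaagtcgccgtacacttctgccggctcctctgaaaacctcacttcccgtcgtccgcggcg
Cpsf2: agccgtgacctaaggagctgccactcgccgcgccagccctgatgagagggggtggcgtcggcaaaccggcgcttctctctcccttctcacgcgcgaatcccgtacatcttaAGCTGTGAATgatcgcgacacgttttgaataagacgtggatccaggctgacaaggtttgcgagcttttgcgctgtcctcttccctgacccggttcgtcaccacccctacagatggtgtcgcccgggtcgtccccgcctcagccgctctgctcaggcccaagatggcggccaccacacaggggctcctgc

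In the Tor1aip2 window the tumor 2 summit lay at base 173 and the normal 2 summit at base 200, and the nearest tumor 1 (cre) summit lay 204 bp from the normal 2 summit, past the end of the window. In the Cpsf2 window the tumor 2 summit lay at base 119, the normal 2 summit at base 114, and the nearest tumor 1 (cre) summit 255 bp from the normal 2 summit. These 2 windows were chosen after their values were seen. Their GC contents were 65.7% and 62.3%, with 33 and 26 CpG.

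By contrast, Gm13212 and Fam89a had Clu_Yap summits of both labels near a gene end and no cre summit within 1 kb. The cre lists were not cut, so they were searched whole. Gm13212 and Fam89a had the 2 elements of that kind within 1 kb of a gene end. Their windows are shown with the 50 bases from the transcript start on in capitals. The windows are chr4:145584950-145585249 on the + strand and chr8:124751817-124752116 on the − strand.
Gm13212: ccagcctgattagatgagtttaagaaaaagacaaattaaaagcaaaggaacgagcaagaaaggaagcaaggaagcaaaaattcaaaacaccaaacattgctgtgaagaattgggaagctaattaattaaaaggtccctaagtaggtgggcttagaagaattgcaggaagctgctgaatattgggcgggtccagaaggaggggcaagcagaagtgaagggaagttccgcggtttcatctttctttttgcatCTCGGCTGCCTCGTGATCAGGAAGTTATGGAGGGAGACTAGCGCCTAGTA
Fam89a: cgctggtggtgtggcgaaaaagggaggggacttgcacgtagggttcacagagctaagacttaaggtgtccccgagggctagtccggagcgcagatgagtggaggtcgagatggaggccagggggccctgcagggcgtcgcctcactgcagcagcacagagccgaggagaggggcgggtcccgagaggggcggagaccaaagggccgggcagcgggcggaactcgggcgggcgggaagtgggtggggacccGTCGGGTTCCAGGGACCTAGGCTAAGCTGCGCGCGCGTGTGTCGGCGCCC

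The Gm13212 window had 44% GC and 7 CpG, and the Fam89a window had 69% GC and 27 CpG. The summits lay just outside the windows, 152 bp away in tumor 2 and 35 bp away in normal 2 for Gm13212, and 130 bp away in tumor 2 and 4 bp away in normal 2 for Fam89a. The letters GGAATG, the core that TEAD factors bind, and TGANTCA, the core that AP-1 factors bind, were searched on both strands and occurred in none of these 4 windows.

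The question put to the whole lists was whether libraries of one word share more summits than libraries of different words. With all 4 lists at their best 1574 summits and a partner within 200 bp counted as shared, the tumor pair shared 63.7% of its summits (95% Wilson interval 61.3 to 66.0, covering counting error only) and the normal pair 26.5% (24.4 to 28.7). Across labels, the same word was shared at 19.3% (17.4 to 21.3) between tumor 2 and normal 2 (Clu_Yap), and at 8.58% (7.29 to 10.1) between tumor 1 and normal 1 (cre). Libraries that differ in both label and word shared 21.0% (19.1 to 23.1) for tumor 1 with normal 2, and 6.42% (5.31 to 7.74) for tumor 2 with normal 1.

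The normal 2 (Clu_Yap) list was shared less with the tumor list of its own word than with the other, a difference of −1.78 percentage points, and the normal 1 (cre) list was shared more, a difference of 2.16 points. The mean of these differences was 0.191 points with an SD of 2.79 over 2 lists, which is smaller than its spread. With the full lists the difference was 0.707 points for normal 2 (Clu_Yap) and 3.49 points for normal 1 (cre), a mean of 2.10 with an SD of 1.97, so the sign for normal 2 turned. No test was made, as the pairs of lists reuse the same 4 libraries. No summit of any YAP library had both the position and the score of a summit in another.

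**Figure D1:**
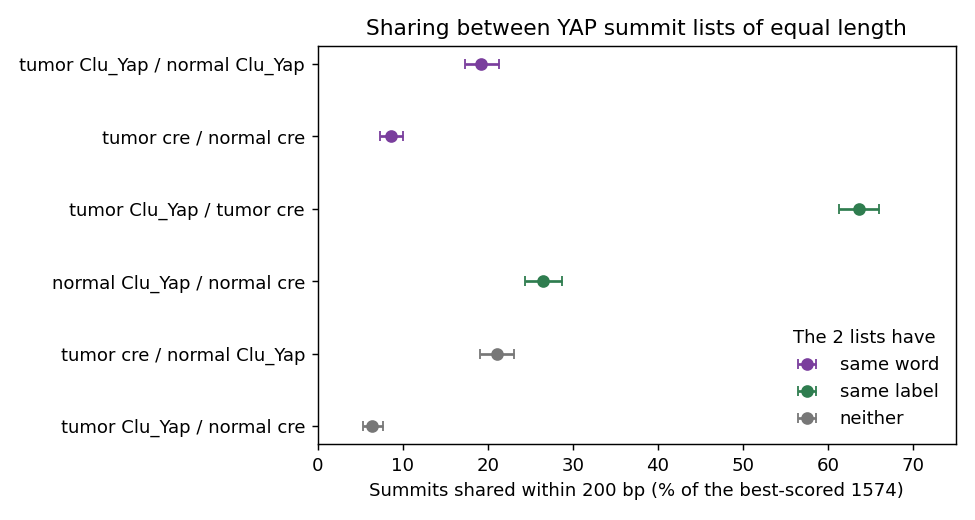
Share of summits with a partner within 200 bp (x axis, percent of the best-scored 1574 of each list) for the 6 pairs of YAP libraries, with 95% Wilson intervals; colours mark pairs of the same word, the same label or neither. The tumor pair lies at 63.7% and the normal pair at 26.5%, and the pairs of 1 word lie at 19.3% for Clu_Yap and 8.58% for cre, with the pairs that share neither at 21.0% and 6.42%.

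A group of 292 summits of the normal 2 list had a partner within 200 bp in each of the other 3 libraries. Their median rank by score in normal 2 was 173.5, and they made up 90 of its best 100 summits. The best-ranked lay at chr9:35305401, nearest to Rpusd4, which encodes a mitochondrial RNA pseudouridine synthase, with summits of tumor 2, tumor 1 and normal 1 at 4, 4 and 3 bp. Others among the first 5 were nearest to Tmem196, Mrgprd and Chl1. H3K27ac summits of both H3K27ac libraries lay within 53 bp of the sites at Rpusd4, Tmem196, Mrgprd and Chl1, which themselves were 7592 to 83838 bp from the nearest gene end. No filter for regions that give high signal whatever the antibody was applied here. Whether these sites are of that kind was not tested.

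The libraries of the 2 words differed in how near their summits lay to gene ends, mainly in the normal pair. Within 1 kb of the start or end coordinate of a protein-coding gene, called a gene end here because strand was not in the gene table, normal 2 (Clu_Yap) had 487 of 1574 summits, 30.9% (28.7 to 33.3), and normal 1 (cre) had 17, 1.08% (0.675 to 1.72). In the tumor pair the shares were 29.4% (29.0 to 29.9) in tumor 2 (Clu_Yap) and 30.4% (29.9 to 30.8) in tumor 1 (cre). Clu_Yap was higher by 29.9 percentage points in the normal pair and lower in the tumor pair, by a difference of −0.952 points. The mean of 14.45 points was smaller than its SD of 21.8 over 2 pairs, and the exact two-sided permutation p was 1.0, where 0.5 is the smallest possible. Without normal 1 (cre), the mean of both Clu_Yap libraries minus tumor 1 was −0.185 points, a value that sets both labels against 1.

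The sign in the tumor pair turned with list length. It was +1.21 points with all lists at 1574 summits, where 69.5% of tumor 2 and 68.3% of tumor 1 summits were near gene ends, and −6.01 points with the full lists. The median distance to a gene end was 7782 bp in tumor 2 and 7748 bp in tumor 1, against 14409 bp in normal 2 and 73111.5 bp in normal 1.

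The course along the ranking separated the labels as well. In tumor 2 the share near gene ends was 71.2% in the best-scored of 10 equal parts of the list and 11.4% in the last, and in tumor 1 it was 70.3% in the best and 13.3% in the last. In normal 2 it ran the other way, with 4.43% in the best part and 44.6% in the ninth, and in normal 1 it was at most 3.17% in any of the 10 parts of the list.

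On chromosome X the words differed in the same direction in both pairs. The X held 1.54% of tumor 2 (Clu_Yap) and 2.09% of tumor 1 (cre) summits, and 4.19% of normal 2 (Clu_Yap) and 9.66% of normal 1 (cre) summits. Clu_Yap minus cre was −0.552 percentage points in the tumor pair and −5.46 in the normal pair, a mean of −3.01 with an SD of 3.47 over 2 pairs, and the exact two-sided permutation p was 0.5, the smallest possible. Without normal 1 (cre), the mean of both Clu_Yap libraries lay 0.777 points above tumor 1, which sets both labels against 1. In the last of the 10 parts of the tumor lists, the X held 1.49% of tumor 2 and 4.27% of tumor 1 summits.

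**Figure D2:**
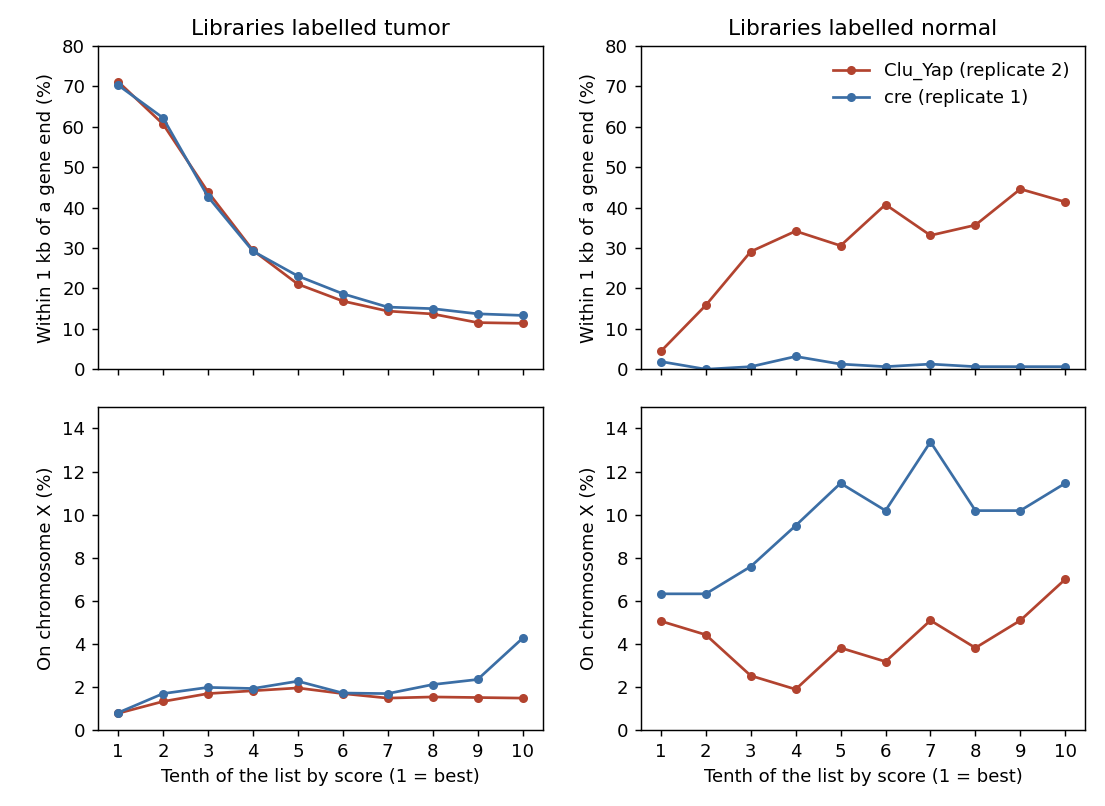
Percent of summits that lie no more than 1 kb from a gene end (upper row) and on chromosome X (lower row) in 10 equal parts of a list ordered by score, at equal length within each label pair; tumor libraries left and normal libraries right, 1 point for each of the 10 parts and library. The tumor lines for Clu_Yap and cre run together near gene ends, from about 71.2% and 70.3% to 11.4% and 13.3%, while the normal cre line stays at or below 3.17%.

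The acetylated histone H3 mark H3K27ac, found at promoters and enhancers in use, was read from 1 tumor and 1 normal library cut to the same length, and a YAP summit was called marked with an H3K27ac summit within 1 kb. Tumor H3K27ac marked 34.9% of tumor 2 (Clu_Yap) and 38.0% of tumor 1 (cre) summits, and 75.2% of normal 2 (Clu_Yap) and 45.7% of normal 1 (cre) summits. Normal H3K27ac marked 42.5% of tumor 2 and 44.5% of tumor 1 summits, and 66.5% of normal 2 and 25.1% of normal 1 summits. At these lengths the Clu_Yap share was lower in the tumor pair and higher in the normal pair under either mark. With all 4 YAP lists at 1574 summits the order in the tumor pair turned, with tumor H3K27ac at 88.7% of tumor 2 and 87.0% of tumor 1 summits and normal H3K27ac at 92.8% of tumor 2 and 91.5% of tumor 1 summits. The peak names of the H3K27ac libraries hold Clu_Yap for the tumor one and cre for the normal one.

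Elements that differ by word in both pairs were then counted, starting from the 1574 summits of each normal list. A summit of normal 2 with no normal 1 summit within 200 bp, with a tumor 2 summit within 200 bp and with no tumor 1 summit there is called Clu_Yap alone, and the mirror image cre alone. There were 82 elements of Clu_Yap alone and 103 of cre alone. The elements that swapped words between the labels give the level measured the same way: 125 were cre alone in the tumor pair and Clu_Yap alone in the normal pair, and 21 were the reverse. In all, 185 elements had the same word alone in both pairs and 146 had opposite words, from 1 library per word and label and with no test. This order turned at a score of at least 5, with 59 of the same word and 62 of opposite words, and at a score of at least 10, with 11 of the same word and 25 of opposite words.

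Most summits that were alone in the normal pair had no such pattern in the tumor pair. Of the normal 2 list, 512 summits without a normal 1 partner had both tumor libraries and 438 had neither, and of the normal 1 list 36 had both and 997 had neither. The share with neither tumor library was 27.8% of the normal 2 list and 63.3% of the normal 1 list.

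The elements of Clu_Yap alone lay closer to genes than those of cre alone. Near a gene end were 32 of the 82, 39.0% (29.2 to 49.9), and 0 of the 103, with an upper bound of 3.60%. The median distance to a gene end was 10700 bp for Clu_Yap alone and 63786 bp for cre alone. Normal H3K27ac marked 74.4% of the elements of Clu_Yap alone and 6.80% of cre alone, and tumor H3K27ac 72.0% of Clu_Yap alone and 62.1% of cre alone. On chromosome X lay 1 element of Clu_Yap alone and 14 of cre alone. The normal lists from which the elements were taken differed in the same ways, as given above, and the elements that were cre alone in the tumor pair and Clu_Yap alone in the normal pair were near gene ends at 27.2% (20.2 to 35.6).

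The near-gene elements of Clu_Yap alone mostly had a cre summit just past the limit of 200 bp. Of the 32, 30 had a tumor cre summit 204 to 998 bp away, at a median of 253.5 bp. Uspl1, a SUMO protease gene, had the best-ranked element of the class, at rank 131 in tumor 2 and 214 in normal 2, and its nearest tumor cre summit was 239 bp away. At Proser1 that distance was 240 bp and at Mcm3ap, whose product binds the replication factor Mcm3, 211 bp. Over all 82 elements, 45 had the other word 201 to 500 bp away, against 17 of the 103 of cre alone. A further 15 of the 103 had a Clu_Yap summit within 200 bp in the full lists, below the score at which the list was cut, and 0 of the 82 had a cre summit there, since the cre lists were not cut.

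With no summit of the other word within 1 kb in any full list, a limit chosen after the data were seen, 32 elements of Clu_Yap alone and 70 of cre alone were left, and 44 and 11 of the discordant kinds. The order of the first 3 classes by count changed, with cre alone now first. Of these elements, 2 of Clu_Yap alone and 0 of cre alone were near a gene end, and normal H3K27ac marked 46.9% of Clu_Yap alone and 1.43% of cre alone. Tumor H3K27ac marked 43.8% of Clu_Yap alone and 54.3% of cre alone. Their tumor summits were low in the ranking, with a median rank of 27136 in tumor 2 for Clu_Yap alone and 32997.5 in tumor 1 for cre alone, of 38227.

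Among these stringent elements of Clu_Yap alone, the best tumor rank was at chr4:145585284 (Gm13212), which ranked 7956 in tumor 2 and 904 in normal 2, with the nearest tumor cre summit 189251 bp away. Near Fam89a, at chr8:124751813, the ranks were 22411 in tumor 2 and 1029 in normal 2, and the nearest tumor cre summit was 12354 bp away. Between genes, chr11:3172589, 28955 bp from Gm51877, ranked 9239 in tumor 2 and 270 in normal 2, with tumor cre 11338 bp away, and chr15:91983236, 67916 bp from Cntn1, a neural adhesion gene, ranked 15958 in tumor 2 and 312 in normal 2. A cluster of 5 elements of Clu_Yap alone within 200 bp fell in chr5:14515102-15044988, around Gm10354, Gm17019, Gm9758 and Pclo, of which the one at Pclo had a summit of the other word 335 bp away and was not stringent. Whether reads of these predicted Gm genes, which may be copies of one another, were placed uniquely was not tested.

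Of the stringent elements, 10 of the 32 of Clu_Yap alone and 25 of the 70 of cre alone lay inside a gene. The best-ranked of cre alone was at chr4:90726576, at rank 12399 in tumor 1 and 441 in normal 1, 484957 bp from the end of Elavl2, which encodes a neuronal RNA-binding protein. The next were nearest to Cdh20, Basp1, Gm6460 and Mei4, at tumor ranks of 15557 to 17809. Neither normal nor tumor H3K27ac had a summit within 1 kb of these 5.

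Without the 1 kb limit, some elements of opposite words were better ranked than these stringent ones. Under the limit, the best tumor rank was 9888 for cre alone in the tumor pair and 11995 for the reverse. For the same word it was 7956 for Clu_Yap alone and 12399 for cre alone. The element at chr13:74530084, 36072 bp from Zfp825, a zinc finger gene, was cre alone in the tumor pair at rank 481. In the normal pair it was Clu_Yap alone at rank 72. Near Fgf14, a fibroblast growth factor homolog of neurons, the element at chr14:124801799 was Clu_Yap alone in the tumor pair at rank 8 and cre alone in the normal pair at rank 5. In both, a summit of the other word lay close by, at 454 bp and 237 bp.

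**Figure D3:**
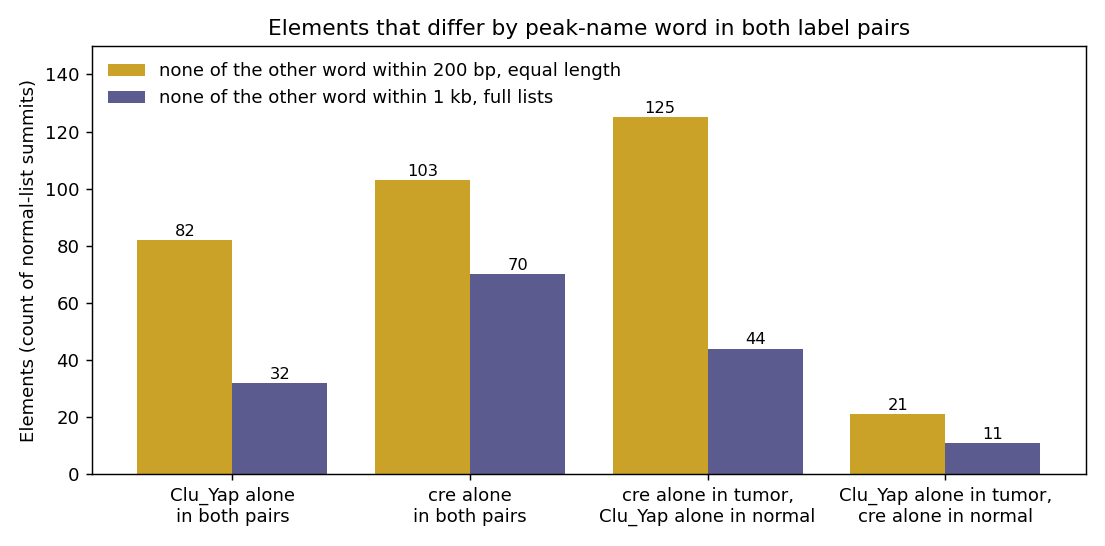
Number of elements (y axis, count of summits of the normal lists) in each class of difference by word, with the other word absent within 200 bp at equal length (gold) or within 1 kb in the full lists (violet). Clu_Yap alone in both pairs has 82 and 32, cre alone in both pairs 103 and 70, and the classes of opposite words 125 and 44, and 21 and 11.

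Within the tumor pair, 11966 summits of tumor 2 (31.3%) and 11952 of tumor 1 (31.3%) had no partner in the other list. The summits without a partner ranked at a median of 28429.5 in tumor 2 and 28675 in tumor 1, and those with one at 14385 in tumor 2 and 14409 in tumor 1. Among the best 1000 summits, 10 of tumor 2 and 19 of tumor 1 had no partner. Near gene ends lay 17.2% of the tumor 2 and 20.3% of the tumor 1 summits without a partner, and 35.0% of the tumor 2 and 34.9% of the tumor 1 summits with one. Tumor H3K27ac marked 19.3% of the tumor 2 and 29.4% of the tumor 1 summits without a partner, and the X held 1.48% of those of tumor 2 and 3.25% of those of tumor 1. Of the tumor 1 summits without a partner, 8738 still had none in the full tumor 2 list.

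Promoter windows of 17251 genes were searched for 4 short motifs chosen after the data were seen, and the shares are given beside those of all 21020 windows. A summit just outside a window was not counted, as with the tumor cre summit at Tor1aip2. A window of Clu_Yap alone or cre alone can thus have the other word close by. Windows holding a summit of tumor 2 (Clu_Yap) but none of tumor 1 numbered 1585, with GGAATG in 10.5% (9.06 to 12.1) and TGANTCA in 5.11% (4.13 to 6.31). Windows of tumor 1 (cre) alone numbered 1706, with GGAATG in 12.5% (11 to 14.1) and TGANTCA in 4.10% (3.26 to 5.15). Windows of both words had GGAATG in 10.6% and TGANTCA in 4.70%, and all windows in 13.5% and 7.04%. In the normal pair, 216 windows held Clu_Yap alone, with a median GC content of 65.5% against 56.7% over all windows, and 1 window held cre alone. Median GC was above that of all windows in the tumor pair too, at 62.7% for Clu_Yap alone, 61.7% for cre alone and 63.7% for both. The intervals of the tumor classes overlapped for both motifs. TATAAA, the TATA box, was in 5.11% of the Clu_Yap alone windows and 5.69% of the cre alone windows of the tumor pair, and in 12.7% of all. CCAAT, the box bound by NF-Y, was in 39.3% of the Clu_Yap alone windows and 41.7% of the cre alone windows, and in 38.5% of all.

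Genes were scored by the summits nearest to one of their ends within 50 kb, over 21631 protein-coding genes. In the tumor pair 887 genes (4.1%) had summits of Clu_Yap alone, 995 (4.6%) of cre alone and 13501 (62.4%) of both. In the normal pair 741 genes (3.43%) had Clu_Yap alone, 365 (1.69%) cre alone and 232 (1.07%) both. In both pairs at once, 11 genes (0.0509%) were Clu_Yap alone and 38 (0.176%) cre alone. Opposite words in the pairs were held by 14 genes (0.0647%) that were cre alone in the tumor pair and Clu_Yap alone in the normal pair, and by 11 genes (0.0509%) of the reverse.

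The 11 genes of Clu_Yap alone were Gm13212, Klhl23, Mtbp, Tor1aip2, Banf1, CK137956, Stoml3, Mup17, Atoh7, Zfp981 and Dbndd2. Gm13212 had 3 summits in tumor 2 and 0 in tumor 1, with 1 in normal 2 and 0 in normal 1. Klhl23, of the Kelch-like family, had 2 in tumor 2 and 0 in tumor 1, with 1 in normal 2 and 0 in normal 1. The other 9 had 1 in each Clu_Yap library and 0 in each cre library. Mtbp encodes a partner of Mdm2, Banf1 a DNA-bridging protein of the nuclear envelope, and Atoh7 a transcription factor of retinal neurons. Their best tumor 2 ranks were 531 for Mtbp, 962 for Banf1 and 27274 for Atoh7. The cre lists were not cut, so the full lists could add no cre summit to these 11 genes. At Mtbp, Tor1aip2, Banf1 and Dbndd2 a cre summit did lie inside the gene or within 10 kb of it, assigned to another gene. The other 7 of the 11 had none there, and their best tumor 2 ranks ran from 7956 for Gm13212 to 38115 for CK137956.

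The 38 genes of cre alone included Mup1, a major urinary protein gene, with 0 summits in tumor 2 and 2 in tumor 1, and 0 in normal 2 and 2 in normal 1. Rragb, encoding a Rag GTPase of the mTORC1 pathway on chromosome X, had 0 in tumor 2 and 3 in tumor 1, and 0 in normal 2 and 1 in normal 1. Nox4, an NADPH oxidase gene, Kcnb2, a potassium channel gene, and Synpr, a synaptic vesicle gene, each had 0 in tumor 2 and 2 in tumor 1, and 0 in normal 2 and 1 in normal 1, and so did Extl2, Meikin, Gm4988, Gstp3 and Cldn34a. Only the Clu_Yap lists grow in the full lists, so this check could change the genes of cre alone but not those of Clu_Yap alone. In the full lists 20 of the 38 stayed without a Clu_Yap summit, and Mup1 had 3 in tumor 2 and 2 in tumor 1. No Clu_Yap summit lay inside the gene or within 10 kb of it for 25 of the 38. Of the 38, 8 lay on the X, 21.1%, against 4.47% of all genes scored, and 6 were olfactory or vomeronasal receptor genes, 15.8%, against 6.77% of all. Of the lists in which all 38 have a summit, normal 1 (cre) held 9.66% of its summits on the X and tumor 1 (cre) 2.09%. Among the 365 genes of cre alone in the normal pair 32 were such receptor genes, and among the 995 of the tumor pair 31 were. The Mup genes and the receptor genes are multigene families whose members share sequence, so the assignment of reads to one member is uncertain.

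Counting genes with more summits of one word, 3896 genes (18%) had more of Clu_Yap and 3839 (17.7%) more of cre in the tumor pair, and 775 (3.58%) had more of Clu_Yap and 380 (1.76%) more of cre in the normal pair. In both pairs, 183 genes (0.846%) had more of Clu_Yap and 108 (0.499%) more of cre. Opposite signs were held by 186 genes (0.86%) with more cre in the tumor pair and more Clu_Yap in the normal pair, and by 56 genes (0.259%) of the reverse. Each of these counts comes from 1 library per word and label, with no test.

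Among the 268 genes of 14 lists, 210 had summits of both words in the tumor pair, 11 of Clu_Yap alone and 10 of cre alone, which is 4.10% and 3.73% of the list genes beside 4.1% and 4.6% of all genes. No list gene was of one word alone in both pairs. More Clu_Yap summits in both pairs were held by 4 list genes, and more cre in both by 1, beside 4 with more cre in the tumor pair and more Clu_Yap in the normal pair, and 1 of the reverse. The 4 genes were Frmd6, Xbp1, Itga6 and Gata4, and the 1 was Vgll4. List genes named below other than these and the targets were chosen after their values were seen.

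The 28 targets of YAP and TAZ had 85 summits in tumor 2 and 83 in tumor 1, while normal 2 had 3 and normal 1 had 1. In the tumor pair, more summits of Clu_Yap were at 11 targets and more of cre at 9, which is 39.3% and 32.1% of the list, beside 18% and 17.7% of all genes. A gene without summits in either tumor list cannot differ. That was so for 2 of the 28 targets and for 6248 of the 21631 genes, so the shares are not directly comparable. The shares of the lists below carry the same limit. The median difference per target was 0. Ccn1, a matricellular protein gene, had 6 summits in tumor 2 and 8 in tumor 1, and 8 in each in the full lists. Ccn2, of the same family, had 2 in tumor 2 and 1 in tumor 1. At equal length neither word was the higher one at both of these targets.

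Amotl2, an angiomotin that holds YAP in the cytoplasm, had 6 summits in tumor 2 and 10 in tumor 1. In the full lists the order turned, with 11 in tumor 2 and 10 in tumor 1, and the best ranks were 994 in tumor 2 and 995 in tumor 1. Myof, a membrane repair gene, had 10 in tumor 2 and 4 in tumor 1, also in the full lists.

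Targets of one word alone had 1 or 2 summits, and Axl and Rbms3 had 0 in both tumor lists of equal length. Ankrd1, Tgfb2 and Fgf2 had 1 summit each in tumor 2 and 0 in tumor 1. Fjx1 had 0 in tumor 2 and 1 in tumor 1, and Igfbp3 had 0 in tumor 2 and 2 in tumor 1. In the full lists tumor 2 had 1 at Fjx1 and 1 at Igfbp3, so neither stayed cre alone, and Axl had 1 in tumor 2 and 0 in tumor 1.

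In the normal libraries 2 targets had summits. Frmd6, a FERM-domain gene that acts upstream of Hippo, had 4 summits in tumor 2 and 2 in tumor 1, with 2 in normal 2 and 1 in normal 1. Asap1, an Arf GTPase-activating protein gene, had 3 in tumor 2 and 3 in tumor 1, with 1 in normal 2 and 0 in normal 1.

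The 25 genes of the Hippo pathway had 64 summits in tumor 2 and 68 in tumor 1. For each word 7 genes (28%) had more, beside 18% of all genes for Clu_Yap and 17.7% for cre. Vgll4, a competitor of YAP for TEAD, had 5 in tumor 2 and 9 in tumor 1, with 0 in normal 2 and 1 in normal 1. In the full lists this was even, with 9 in each tumor library and 1 in each normal library. All 14 AP-1 genes had summits of both words in the tumor pair, beside 62.4% of all genes. They had 53 summits in tumor 2, 47 in tumor 1 and 0 in the normal pair. Atf3, a stress-induced gene, had 7 in tumor 2 and 5 in tumor 1, and Junb had 3 in each.

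Marker genes of gastric cell types stood in both tumor lists, though summits do not measure expression and the labelled tissue could not be checked by RNA here. Parietal cell genes, those of acid secretion, had 67 summits in tumor 2 and 69 in tumor 1. Pit cell genes, those of the surface mucous cells, had 44 in tumor 2 and 49 in tumor 1. Chief cell genes, those of digestive enzyme secretion, had 22 in tumor 2 and 24 in tumor 1.

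Of the 12 chief cell genes, 3 (25%) were cre alone in the tumor pair, beside 4.6% of all genes. Cblif, encoding intrinsic factor, Pgc, encoding pepsinogen C, and Chia1, encoding a chitinase, each had 0 in tumor 2 and 1 in tumor 1. These single summits ranked 28182 for Cblif, 17044 for Pgc and 38067 for Chia1 among the 38227 of tumor 1. In the full lists tumor 2 had 1 at Pgc and 1 at Chia1, and 0 at Cblif. Xbp1, a transcription factor of secretory cells, had 9 in tumor 2 and 7 in tumor 1, with 1 in normal 2 and 0 in normal 1.

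Genes of mucous neck cells and of spasmolytic-polypeptide-expressing metaplasia had 52 summits in tumor 2 and 45 in tumor 1. More of Clu_Yap was at 8 of 20 genes (40%) and more of cre at 2 (10%), beside 18% and 17.7% of all genes. Mal2, of apical membrane traffic, had 6 in tumor 2 and 3 in tumor 1. Itga6, an integrin gene, had 8 in tumor 2 and 6 in tumor 1, with 1 in normal 2 and 0 in normal 1. Sox9, a progenitor factor, ran the other way, with 2 in tumor 2 and 5 in tumor 1, but 5 in each in the full lists.

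The integrin and matrix list had 72 summits in tumor 2 and 57 in tumor 1. More of Clu_Yap was at 8 of its 23 genes (34.8%) and more of cre at 3 (13%), beside 18% and 17.7% of all genes. Smad3, a transducer of TGF-beta, had 10 in tumor 2 and 7 in tumor 1. Tgfbr2, a TGF-beta receptor gene, had 7 in tumor 2 and 4 in tumor 1.

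In other lists the totals were closer. Gastric transcription factor genes had 65 summits in tumor 2 and 64 in tumor 1, proliferation genes 56 in tumor 2 and 53 in tumor 1, and housekeeping genes 37 in each. Gata4, an endodermal transcription factor, had 10 in tumor 2 and 9 in tumor 1, with 1 in normal 2 and 0 in normal 1. Pdx1, a factor of antrum, duodenum and pancreas, had 2 in tumor 2 and 0 in tumor 1.

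Markers of other cell types were counted as well. Endocrine and tuft cell genes had 12 summits in tumor 2 and 9 in tumor 1, immune genes 15 in tumor 2 and 21 in tumor 1, and stromal genes 26 in tumor 2 and 28 in tumor 1. Fcgr3, an Fc receptor gene, had 7 in tumor 2 and 12 in tumor 1, and 2 in normal 2 and 0 in normal 1. In 1465 olfactory and vomeronasal receptor genes, a comparison group, tumor 2 had 73 and tumor 1 had 87 summits, and normal 2 had 13 and normal 1 had 39.

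**Figure D4:**
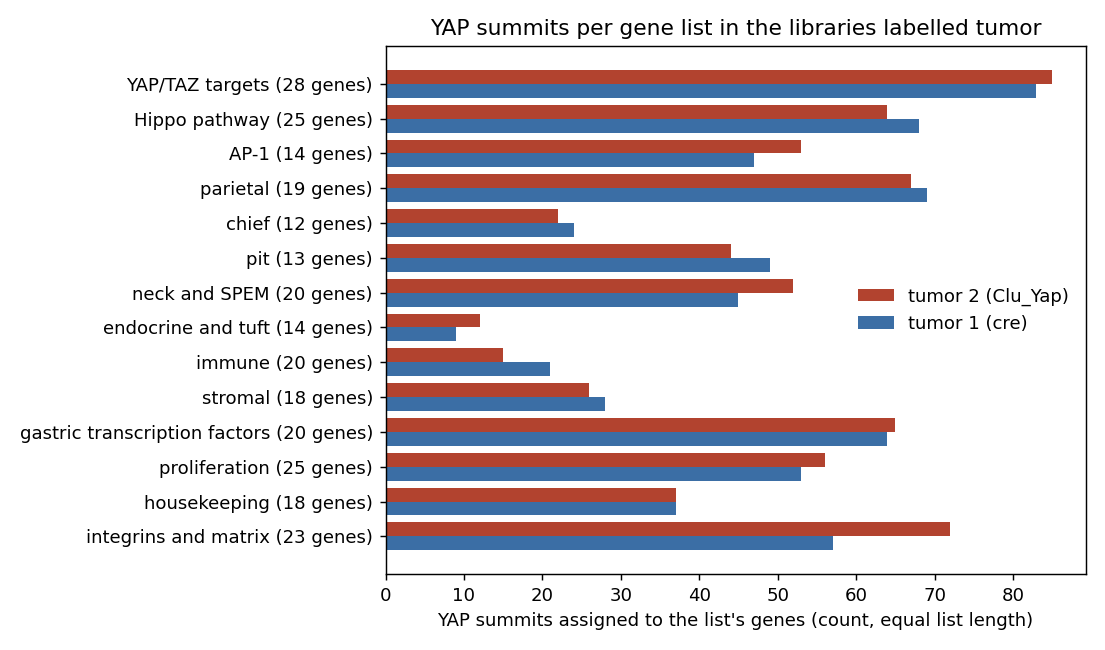
YAP summits assigned to the genes of each list (x axis, count at equal list length) in the tumor 2 library (Clu_Yap, red) and the tumor 1 library (cre, blue), by list with its number of genes. The YAP and TAZ targets have 85 and 83, and the widest gap among these lists is in integrins and matrix, with 72 and 57.

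The endogenous loci of Yap1 and Clu, genes named in the genotype, did not separate the words in the same way. Inside Yap1, at chr9:7931999-8004638, the full tumor lists had 4 summits in tumor 2 and 2 in tumor 1, while normal 2 had 1 and normal 1 had 0. The order in the tumor pair turned at equal length by the nearest gene end, with 3 in tumor 2 and 4 in tumor 1. The best ranks were 11729 in tumor 2, 12189 in tumor 1 and 683 in normal 2. Inside Clu, at chr14:65968483-65981548, tumor 2 and tumor 1 had 1 summit each, at ranks 3098 and 2470, and neither normal library had one.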

How the data were processed

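YAP summit lists of 4 libraries and H3K27ac summit lists of 2 were analysed. Bowtie2 and MACS2 appear in the submitters' processing notes with mouse build mm10 (GRCm38), without versions or thresholds, and whether a control library was used is not given in the sources used here. Each deposited list holds summits 1 bp wide, called per sample. Its score, as the authors deposited it, is on a −log10 scale, of either p or q (not stated which), used here to rank and filter summits within a list. Depth is unknown, and Wilson intervals cover counting error only.

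The word was read from the peak name, and groups and pairs from the labels. Summits on chromosomes 1 to 19 and X were kept. Sharing was set at 200 bp, H3K27ac at 1 kb with both H3K27ac lists at 22386 summits, and gene assignment at the nearest gene end within 50 kb, in a RefSeq table of GRCm38.p6 with no strand or exons. All 268 list genes matched. Promoter windows and sequences are RefSeq's. Python 3.11.15, numpy 2.4.6, pandas 2.3.3, scipy 1.17.1 and matplotlib 3.10.9 were used, and the element counting was tested on simulated lists.

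Libraries were compared by exact permutation within label pairs (3 such tests). Members, lists and motifs were chosen with earlier results of these data known. Named genes were Yap1, Clu, the YAP and TAZ targets, list genes that differ the same way in both pairs, up to 10 other genes per direction by summit difference, up to 10 elements per class by the worse rank, and up to 5 sites of all 4 libraries; others are said to be chosen after their values were seen. Alternatives in list length, distance, score and gene assignment, and each library left out, are given at the end.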

Additional observations from a re-analysis of the deposited data

Results flagged for a closer look

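Summits no more than 1 kb from a gene end differed in their share by word in opposite directions in the label pairs. Clu_Yap minus cre was −0.9522 percentage points in the tumor pair and 29.86 points in the normal pair, with 1 library per word in each pair, and the difference between the pairs was not tested.

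Summits outside the chromosomes compared were listed too. Chromosome Y held 73 summits in tumor 2 (Clu_Yap) and 41 in tumor 1 (cre), and 20 in normal 2 (Clu_Yap) and 80 in normal 1 (cre). The mitochondrial genome held 13 in tumor 2 and 12 in tumor 1, and 0 in normal 2 and 1 in normal 1. These were not used in the comparisons above.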

How the results depend on the processing

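No paired analysis was possible because the replicate number and the word are the same split, and this holds for pairing by replicate number alone: the main tests pair libraries by label. Without the label pairs the count ratio was still 1.378, with an exact two-sided permutation p of 0.667 over 6 splits (smallest 0.333). Of 118 alternatives, 68 kept the value by a rule set for its kind. For the 3 tested results the rule was the same sign only, whatever the size. For the other results it was a limit on the size of the change. The cause of the changes in the rest was not tested unless the construction shows it. Leaving out 1 library breaks the label pairs and mixes labels: the count ratio then ran from 0.2734 to 6.94 (0.2795 without normal 1, 0.2734 without tumor 2), the gene-end difference from −0.185 (without normal 1) to 29.09 points, and the X difference from −6.793 to 0.7768 points (the highest without normal 1). Element counts also depend on the list from which they start. Elements of Clu_Yap alone numbered 50 within 500 bp, 42 within 1 kb, 170 in full lists, 41 with all lists at the shortest length, 28 at a score of at least 5, 3 at a score of at least 10 and 32 with no other word within 1 kb of the full lists. Elements of cre alone numbered 1 at the shortest length, 31 at a score of 5 and 8 at 10. The order of the classes turned in full lists (170 of Clu_Yap alone and 88 of cre alone), within 100 bp (109 and 75) and at the shortest length (41 and 1). Elements that were cre alone in the tumor pair and Clu_Yap alone in the normal pair numbered 34 at the shortest length, 51 and 18 at scores of 5 and 10, and 44 under the 1 kb limit. The reverse numbered 43 in full lists, 2, 11 and 7 under those settings, and 11 under the 1 kb limit. Genes of Clu_Yap alone numbered 35 in full lists, 52 at the shortest length, 1 at a score of 10 and 183 by more summits. Genes of cre alone numbered 16 with a gene end within 10 kb, 20 in full lists, 5 at the shortest length, 14 and 6 at scores of 5 and 10, and 108 by more summits. Their order thus turned too in full lists, at the shortest length and by more summits. Genes of the same word in both pairs were fewer than genes of opposite words at the shortest length (57 and 60) and at a score of 10 (7 and 11), against 49 and 25 in the main count. Genes that were cre alone in the tumor pair and Clu_Yap alone in the normal pair numbered 6 within 10 kb, 24 with the gene holding the summit first, 47 at the shortest length, 7 and 6 at scores of 5 and 10, and 186 by more summits. The reverse numbered 3 within 10 kb, 22 in full lists, 7 and 5 at those scores, and 56 by more summits. H3K27ac at elements of Clu_Yap alone was 84.15% with the full tumor H3K27ac list, and under the 1 kb limit 43.75% for the tumor and 46.88% for the normal mark, where cre alone had 1.429% for the normal mark. List genes of one word alone in the tumor pair numbered 19 for Clu_Yap and 4 for cre in full lists. The 1 kb limit over full lists, the count by more summits, transcript starts and the tumor-list count were chosen after seeing the data.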
